A study of Mus musculus with 23 samples.

Results

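In left ventricles of mice that breathed e-cigarette aerosol with nicotine, libraries of mice exposed from 3 months of age were compared with libraries of mice exposed from 3 weeks of age. The 8 libraries were taken by their titles, 4 per starting age, out of 23 in the whole study, and every gene of the deposited count table was considered. All mice were of the inbred strain FVB, and all groups of the study shared the same schedule of 4 hours a day on 5 days a week for 3 months. The nicotine aerosol also held the e-cigarette vehicle. The other groups breathed filtered air (4 libraries at each starting age) or aerosol of the vehicle without nicotine (3 libraries of the 3-week start and 4 of the 3-month start). They are used here to set the nicotine values beside them. They also enter the main fit, through the filter on low counts and the shared estimate of spread. Because exposure lasted equally long from either start, the age at the start cannot be told apart from the age at the end, and the difference of 3-month minus 3-week start is called the age difference below. The labels give neither the batch nor the sex of the mice, and they do not state that each library is a separate animal. The p-values therefore rest on the spread between samples alone, and that spread may be technical.

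Nicotine acts on nicotinic acetylcholine receptors of autonomic ganglia and the adrenal medulla, and the catecholamines that these release reach the heart through adrenergic receptors. Heart muscle cells and their neighbours answer catecholamines, stretch, growth factors and injury with immediate early genes, transcription factors whose messages appear quickly after a stimulus and decay quickly. Slower programs follow, among them NF-kB dependent cytokines that call in neutrophils, natriuretic peptides and the actin isoforms of the stressed ventricle, and genes of the extracellular matrix.

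The tissue label was compared with markers of heart muscle and of other tissues. The ventricular myosin gene Myh6 was measured at 34843 to 44516 CPM (counts scaled to library size with trimmed means) in the 3-week libraries and at 42693 to 48608 in the 3-month libraries. The surfactant genes Sftpc and Sftpb and the myogenic factor Myod1 did not pass the filter on low counts, and 1 of 8 listed lung genes and 4 of 12 listed skeletal muscle genes did. Library totals were 12297955 to 14713765 counts in the 3-week libraries and 13551910 to 14829988 in the 3-month libraries, and mitochondrially encoded genes took 9.09 to 10.8% and 8.97 to 10.3% of counts. Hemoglobin genes took 0.110 to 0.132% of counts in the 3-week and 0.0372 to 0.0520% in the 3-month libraries, and noncoding genes 1.35 to 3.11% against 1.21 to 1.30%.

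The 3-week nicotine libraries fell into pairs. The median absolute log2 difference over genes was 0.158 between replicates 2 and 5 and 0.173 between replicates 3 and 6, against 0.328 to 0.371 for the other pairings, while the 3-month libraries differed from each other by 0.140 to 0.225. The sarcoplasmic calcium pump gene Atp2a2 shows the split, with 7059, 16421, 7550.0 and 17518 CPM in 3-week replicates 2, 3, 5 and 6. Replicates 2 and 5 stood at less than the level of any 3-month library, and replicates 3 and 6 within the 3-month range of 14506 to 18672 CPM. Library properties split the same way. The rank correlation of level with exonic length was 0.237 and 0.247 in replicates 2 and 5 and 0.291 and 0.305 in replicates 3 and 6. It was 0.271 to 0.310 in the 3-month libraries. Genes with a count numbered 21679 and 21281 in replicates 2 and 5 and 20466 and 20551 in replicates 3 and 6. The part of these properties in the calls was not tested. Results are therefore also given without replicates 2 and 5 and without replicates 3 and 6, a choice made after the data were seen.

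Of 15500 genes tested, 1476 differed by starting age at an adjusted p under 0.05 in edgeR's quasi-likelihood test (9.52% of genes tested). There were 780 genes higher in the 3-month start (5.03%) and 696 lower (4.49%). Of these, 113 genes rose and 30 fell by over 2 on the log2 scale. The 4 libraries of one age did not overlap those of the other for 1485 genes higher in the 3-month start (9.58%) and 1453 genes lower (9.37%), and 1329 of the 1476 genes were among them. A fit of the 8 nicotine libraries alone called 1617 of 14007 genes (11.5%), of which 1199 were also called in the fit of all libraries. Without 3-week replicates 2 and 5, 269 of the 1476 genes kept their call (196 higher and 73 lower). Without replicates 3 and 6, 1236 kept it, and all 1476 kept their direction in both. Over all genes tested, 1.34% rose and 0.529% fell without replicates 2 and 5, and 15% rose and 11.7% fell without 3 and 6. Leaving out single libraries gave 660 and 722 genes without 3-week replicate 2 or 5, 872, 628 and 633 without 3-month replicate 1, 2 or 4, and 2333 without replicate 4 of 3-week vehicle, which enters through the shared estimate of spread. Genes that are not protein coding made up 13.1% of the genes tested, 6.15% of those higher and 17.0% of those lower. The part of the higher noncoding share of the 3-week libraries in these counts was not tested.

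**Figure D1:**
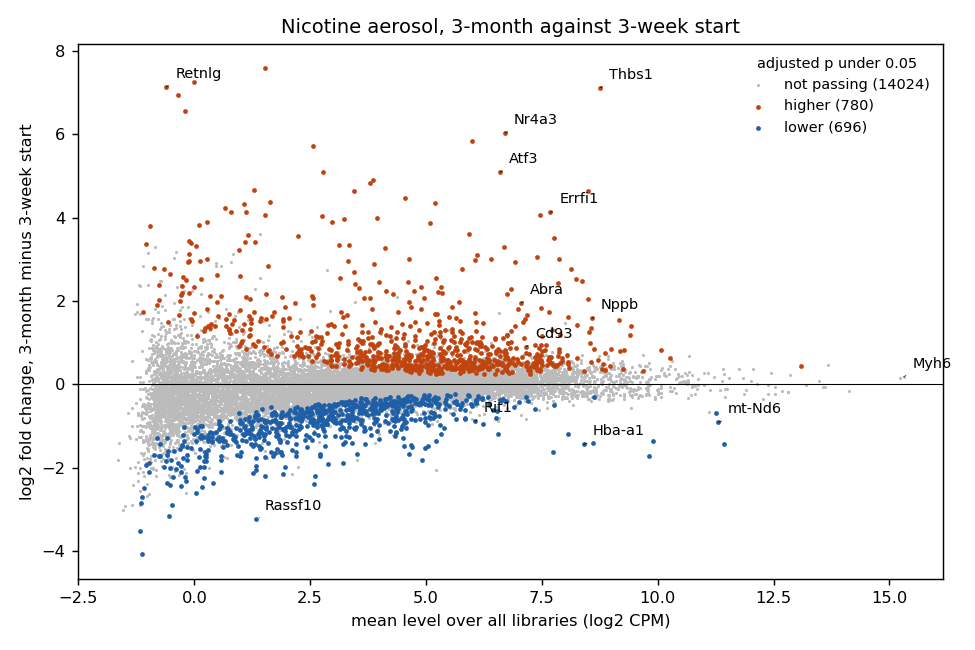
Log2 fold change of 3-month minus 3-week start under nicotine aerosol against the mean log2 CPM over all libraries, 1 point per gene tested. Orange points are the 780 higher and blue points the 696 lower genes at an adjusted p under 0.05, and the genes that moved most lie above the zero line.

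All values below are CPM, in the order of replicates 2, 3, 5 and 6 for the 3-week start and 1, 2, 3 and 4 for the 3-month start. Fold changes are log2 ± SE from the fit, with Benjamini-Hochberg adjusted p-values of edgeR's quasi-likelihood test. Where list members are counted below, 5.03% of all genes tested rose and 4.49% fell with all libraries. The gene of smallest p was Rit1, a small GTPase of the Ras family that acts on MAP kinase signalling. It stood at 91.5, 93.8, 86.9 and 99 in the 3-week and 52.3, 54.5, 45.5 and 47.9 in the 3-month libraries, a change of -0.89 ± 0.10 (adjusted p = 0.000174). The 2 groups did not overlap, and the spread within each was small beside the gap. Among the genes that rose, the smallest p was that of Abra, which encodes an actin-binding protein of striated muscle. Abra was measured at 48.2, 63.7, 58.8 and 53.5 CPM in the 3-week and 212, 280.0, 158 and 219 CPM in the 3-month libraries, 3.88-fold higher in the 3-month start (1.95 ± 0.24, adjusted p = 0.000305). Every 3-month library lay above every 3-week library.

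Several other genes with small p-values encode surface and secreted proteins. Cd93, a C-type lectin-like receptor of endothelium, was at 87.6, 95.1, 86.8 and 104 CPM in the 3-week and 163, 177, 170.5 and 189 in the 3-month libraries, without overlap (0.91 ± 0.12, adjusted p = 0.000451). Tnfrsf12a, the receptor of the cytokine TWEAK, rose from between 33.2 and 51.2 to between 88 and 141 CPM (1.46 ± 0.20, adjusted p = 0.000484). The chemokine Cx3cl1 rose less, from between 9.62 and 11.1 to between 18.1 and 22.3 CPM (0.93 ± 0.13). Cd83, a marker of activated immune cells, rose by 2.31 ± 0.29 on the log2 scale, and the water channel gene Aqp8 by 2.40 ± 0.33. Plekho2 rose by 1.84 ± 0.23 and Gnl3, a nucleolar GTPase, by 0.70 ± 0.10.

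The genes that fell with the smallest p were of mixed function. Podn, a small leucine-rich proteoglycan, was at 29.2, 20.9, 36.4 and 21.7 CPM in the 3-week and 11.4, 12, 11.3 and 11.4 in the 3-month libraries (-1.23 ± 0.17, adjusted p = 0.000484). The older libraries lay close together and all below the younger ones. Rassf10, of the Ras association family, fell from between 4.42 and 7.63 to between 0.311 and 0.830 CPM, with 301 counts over the 3-week and 32 over the 3-month libraries (-3.23 ± 0.55). Ctla4, an inhibitory receptor best known in T cells, fell from between 4.69 and 7.96 to between 1.47 and 2.35 CPM (-1.72 ± 0.30). Smaller falls were those of Smtnl2 (-0.87 ± 0.12), Mlf1 (-0.61 ± 0.10), Fbxo9 (-0.68 ± 0.11), Phactr1 (-0.69 ± 0.12) and the sorting nexin Snx11 (-0.68 ± 0.11). Vmac fell by 1.003, Alkbh4 by 1.32, Hgh1 by 0.86, Smim5 by 1.39 and Skida1 by 1.70 on the log2 scale.

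**Figure D2:**
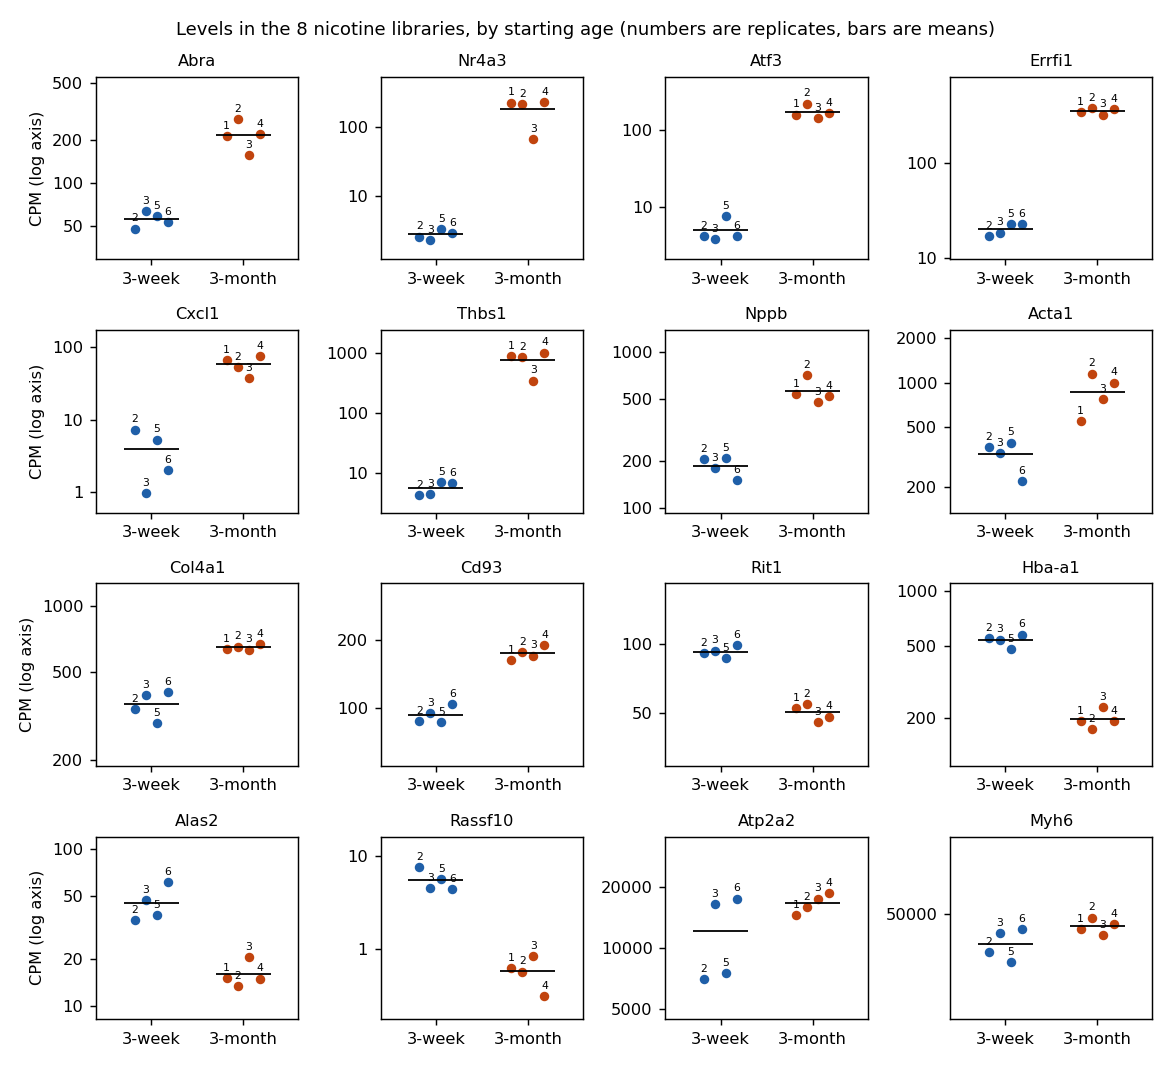
CPM on a log axis in each of the 8 nicotine libraries for 16 genes, with 3-week start at left and 3-month start at right, numbers for replicates and bars for group means. Nr4a3, Atf3, Errfi1 and Thbs1 lie furthest apart by age of these 16, Rit1 and Hba-a1 are lower in the 3-month start, and Atp2a2 shows replicates 2 and 5 below replicates 3 and 6.

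Immediate early genes held more genes that rose than any other list. Of 26 measured genes (of 27 listed), 21 rose and 0 fell, and the median log2 fold change was 2.48, against -0.02 over all genes tested. The orphan nuclear receptor gene Nr4a3 was at 2.61, 2.30, 3.33 and 2.92 CPM in the 3-week and 224, 215, 66.3 and 230.3 in the 3-month libraries (6.04 ± 0.92, adjusted p = 0.000884). Replicate 3 was the lowest of the 3-month libraries and still far above all 3-week libraries. Its relative Nr4a2 rose from between 0.823 and 2.32 to between 21.9 and 28.7 CPM (4.00 ± 0.65). Atf3, a stress-induced transcription factor, stood at 4.24, 3.87, 7.74 and 4.18 CPM in the 3-week and 158, 219, 143 and 164 CPM in the 3-month libraries (5.09 ± 0.74, adjusted p = 0.000684). The zinc finger factor Egr3 rose from between 0.395 and 1.62 to between 17 and 36.3 CPM (4.90 ± 0.77) and the AP-1 subunit Fosl2 from between 18.7 and 29.8 to between 146 and 209.5 (2.94 ± 0.46). In each of these 5 genes the groups did not overlap.

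The members that follow were named after their values were seen. Nr4a1 was at 22, 13.6, 45.7 and 12.6 CPM in the 3-week and 575, 549, 699.8 and 513 in the 3-month libraries (4.64 ± 0.81), and the AP-1 subunit Junb at 82.2, 32.7, 90.7 and 34.2 CPM in the 3-week and 326, 311, 284 and 377 CPM in the 3-month libraries (2.43 ± 0.43). For both, 3-week replicates 2 and 5 were above replicates 3 and 6, and all 4 were below the 3-month libraries. Fos stood at 14.9, 3.04, 36.8 and 4.11 CPM in the 3-week and 59.95, 114, 125 and 175 CPM in the 3-month libraries (3.00 ± 0.79, adjusted p = 0.022). Its call was lost without 3-week replicate 2 (adjusted p = 0.071) or 3-month replicate 4 (0.0635), and without 3-week replicates 3 and 6 (0.0868). Jun did not pass, at 115 to 149.8 CPM in the 3-week and 137 to 356 CPM in the 3-month libraries (0.69 ± 0.34, adjusted p = 0.185), and Ier3 was -0.44 ± 0.19 (adjusted p = 0.142), the one measured member with every 3-month library below every 3-week library. Without 3-week replicates 2 and 5, 15 of 26 rose, where 1.34% of all genes tested rose, and the median was 2.96. Without replicates 3 and 6, 16 rose, where 15% of all genes tested rose, and the median was 2.05.

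NF-kB is held in the cytoplasm by inhibitors that its own targets replenish, and it binds a DNA motif known as the kappa-B site. Of 25 measured inflammatory and NF-kB genes (of 28 listed), 15 rose and 1 fell, with a median of 1.21. Kappa-B motifs, searched on both strands in the 250 bases before each RefSeq transcript start (GRCm38.p6), were found in 8 of 14 promoters of the genes of this list that rose and had a promoter entry (57.14%). The share was 4.545% over promoters of genes tested, 3.899% over all promoters, 6.349% for genes that rose and 2.041% for genes that fell. The promoters with a motif belong to 6 of 11 genes. Because the list was made of NF-kB targets and inflammatory genes, a high share follows from its choice. It was not set against members that did not rise, and Irf1, the member that fell, holds a kappa-B motif too. Overlapping matches were counted once per promoter, and a match describes letters, not binding. The promoters of a ligand, an inhibitor and a subunit of NF-kB are printed because these 3 genes of the list, described next, rose and each holds such motifs, in capitals. They lie at chr5:90890995-90891244 on the plus strand for Cxcl1, chr10:19015411-19015660 on the minus strand for Tnfaip3 and chr19:46304487-46304736 on the plus strand for Nfkb2, each written 5′ to 3′ and ending at the base before the start.
Cxcl1: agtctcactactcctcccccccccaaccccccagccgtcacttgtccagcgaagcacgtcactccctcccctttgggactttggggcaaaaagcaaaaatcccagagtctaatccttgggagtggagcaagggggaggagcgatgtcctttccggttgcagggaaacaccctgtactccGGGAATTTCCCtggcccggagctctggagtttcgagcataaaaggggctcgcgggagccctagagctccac
Tnfaip3: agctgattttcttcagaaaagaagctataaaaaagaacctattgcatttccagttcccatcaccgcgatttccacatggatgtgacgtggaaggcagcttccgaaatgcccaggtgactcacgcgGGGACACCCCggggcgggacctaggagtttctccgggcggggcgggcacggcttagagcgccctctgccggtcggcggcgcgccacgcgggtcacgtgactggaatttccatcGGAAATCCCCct
Nfkb2: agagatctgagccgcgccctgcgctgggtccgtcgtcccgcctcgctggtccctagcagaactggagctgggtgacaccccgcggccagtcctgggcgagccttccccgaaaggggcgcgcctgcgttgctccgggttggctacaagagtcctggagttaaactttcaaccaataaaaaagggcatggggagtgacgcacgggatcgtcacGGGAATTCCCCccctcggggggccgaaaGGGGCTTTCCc

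Among the ligands, Cxcl1, a chemokine that attracts neutrophils, was at 7.31, 0.987, 5.34 and 2.05 CPM in the 3-week and 66.7, 53.2, 37.8 and 76 in the 3-month libraries (3.86 ± 0.53, adjusted p = 0.000535). Ccl7, which attracts monocytes, rose from between 0.928 and 1.48 to between 9.13 and 25.7 CPM (3.98 ± 0.57). Replicate 3 was the lowest 3-month library for both chemokines, and no 3-month library overlapped the 3-week range. The next 3 ligands were named after their values were seen. Ccl2 rose from between 1.18 and 2.35 to between 17.1 and 62.6 CPM (4.48 ± 0.73). Il1b had 13 counts over the 3-week and 288 over the 3-month libraries, a ratio of 21.7 (exact 95% interval 12.5 to 41.2, counting error only). Il6 had 1 count over the 3-week libraries and 96, 70, 6 and 105 in the 3-month libraries, so that replicate 3 again stood lowest.

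Inhibitors and subunits of the pathway rose as well. Tnfaip3, the deubiquitinase A20 that shuts the pathway off, stood at 4.05, 3.62, 4.10 and 4.03 CPM in the 3-week and 11.7, 15.4, 10.6 and 15 CPM in the 3-month libraries (1.74 ± 0.26, adjusted p = 0.000739). The subunit Nfkb2 was at 31.5, 31.9, 30.7 and 29.8 CPM in the 3-week and 58.6, 50.4, 43.7 and 55 CPM in the 3-month libraries (0.75 ± 0.11, adjusted p = 0.000535). Neither overlapped between ages, and 3-month replicate 3 was the lowest of the older libraries for both. The endothelial adhesion molecule gene Icam1, named after its values were seen, rose from between 11 and 15.5 to between 19 and 37.6 CPM (1.21 ± 0.25). Irf1, the member that fell, was at 45.8, 32.2, 46.3 and 32.4 CPM in the 3-week and 27.8, 19.2, 19.9 and 21.6 CPM in the 3-month libraries (-0.83 ± 0.23, adjusted p = 0.0283), and it was named after its value was seen. The adjusted p of Irf1 was above the threshold without 3-week replicate 2 (0.0951) or 5 (0.0871) or both (0.361). It was also above the threshold without 3-month replicate 2 (0.0909), 3 (0.0602) or 4 (0.077). Without 3-week replicates 2 and 5, 10 of the 25 rose and 0 fell, where 1.34% of all genes tested rose and 0.529% fell.

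Neutrophil markers were higher in the same libraries. Of 10 listed genes 6 passed the filter on low counts, which genes high in 1 group can pass through that group. Of the 6, 4 rose, and in all 6 the 3-month libraries lay above the 3-week libraries, as in 9.58% of all genes tested. The calgranulin gene S100a9 had 2, 4, 0 and 2 counts in the 3-week and 44, 59, 27 and 88 in the 3-month libraries, a ratio of 26.7 (exact 95% interval 13.3 to 62.6). Retnlg had 0 counts in all 3-week libraries and 63 over the 3-month libraries, at least 20.6-fold higher against a floor of 3 counts over the group. The chemokine receptor Cxcr2 had 3 against 48 counts. 0 of the 4 passed without 3-week replicates 2 and 5, although the median over the 6 genes was 4.08 then and 4.01 with all libraries, which holds with Retnlg at its bound. The defining genes Ly6g, Mmp8, Ngp and Camp did not pass the filter on low counts. In bulk tissue more cells of a type and more RNA per cell cannot be told apart, and the part of neutrophil RNA in the inflammatory genes was not tested.

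Among markers of other resident cells, Cldn5 rose. Of 14 endothelial markers 1 rose and 1 fell, where 9.52% of all genes tested passed. This tight junction claudin of endothelium stood at 36.9, 24, 39.1 and 23.8 CPM in the 3-week and 172, 133, 86.8 and 165 CPM in the 3-month libraries (2.17 ± 0.44, adjusted p = 0.00475), and replicates 2 and 5 were the higher 3-week libraries. Of 14 macrophage markers 1 fell and 0 rose. Of 13 fibroblast markers and of 13 smooth muscle and pericyte markers, 0 passed in edgeR's quasi-likelihood test, with 3 at an unadjusted p under 0.05 in each, 0 by DESeq2 in each, and 1 and 2 by limma voom. Of 10 atrial cardiomyocyte markers, 0 passed by any of these tools and 0 had an unadjusted p under 0.05. Of 15 ventricular cardiomyocyte genes 1 rose, the cardiac actin gene Actc1, at 6552 to 7552 CPM in the 3-week and 9260.1 to 10195 CPM in the 3-month libraries (0.43 ± 0.10, adjusted p = 0.0139). Its call was lost without 3-week replicate 5 (adjusted p = 0.054) and without 3-week replicates 2 and 5 (0.147). Without 3-week replicates 3 and 6, 5 of the 15 rose and 1 fell, where 15% of all genes tested rose and 11.7% fell.

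Among genes of ERK signalling and its feedback, more rose than fell. Of 15 measured genes 7 rose and 1, Rit1, fell, and the median was 0.68. Errfi1, an inhibitor of the EGF receptor that is also a glucocorticoid target, was at 16.8, 18.4, 22.7 and 22.7 CPM in the 3-week and 342, 379, 322 and 365 in the 3-month libraries, 17.5-fold higher (4.13 ± 0.59, adjusted p = 0.000535). Phlda1 rose from between 16.7 and 27.1 to between 37.8 and 49.6 CPM (1.08 ± 0.23). Spry4, an antagonist of receptor tyrosine kinase signalling, rose from between 12 and 12.6 to between 51.7 and 118 CPM (2.76 ± 0.49), and its adjusted p without 3-week replicates 2 and 5 was 0.0603. Hbegf, an EGF receptor ligand counted with the cardiac stress genes, rose from between 16.3 and 21.2 to between 36 and 60.2 CPM (1.30 ± 0.21).

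Of 20 glucocorticoid targets 8 rose and 0 fell, and of 19 clock genes 6 rose and 2 fell. Per1, a clock repressor that glucocorticoids also induce, was at 97, 74.3, 88.7 and 88.7 CPM in the 3-week and 322, 300.2, 260.0 and 286 CPM in the 3-month libraries (1.74 ± 0.28, adjusted p = 0.000931), without overlap. The clock output repressor Bhlhe40 rose from between 52.9 and 66 to between 147 and 179 CPM (1.40 ± 0.21). Dbp, a clock output factor with a steep daily rhythm, did not pass, at 128 to 172 CPM in the 3-week and 96.5 to 129 CPM in the 3-month libraries (-0.31 ± 0.21, adjusted p = 0.32). The hour of tissue collection is not given. The cell cycle inhibitor Cdkn1a, a target of both glucocorticoids and p53, stood at 7.11, 7.16, 7.97 and 6.71 CPM in the 3-week and 106, 125, 32.3 and 93.7 CPM in the 3-month libraries (3.62 ± 0.71), with 3-month replicate 3 lowest, and its adjusted p was 0.0894 without 3-week replicates 2 and 5. Fkbp5, a sensitive glucocorticoid target, was at 20.7 to 30.1 CPM in the 3-week and 17.3 to 27.97 CPM in the 3-month libraries (adjusted p = 0.825), and it was named after its value was seen.

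Genes of the stressed and growing heart rose in part. Of 16 measured cardiac stress genes 7 rose and 1 fell, with a median of 0.68. Nppb, the B-type natriuretic peptide of the strained ventricle, was at 205, 181, 209 and 152 CPM in the 3-week and 533, 705, 478 and 521 in the 3-month libraries, 2.99-fold higher (1.58 ± 0.25, adjusted p = 0.000931). Rcan1, a calcineurin inhibitor that calcineurin itself induces, stood at 56.9, 79, 64.7 and 71.4 CPM in the 3-week and 219, 267, 159 and 212 CPM in the 3-month libraries (1.65 ± 0.25, adjusted p = 0.000751). The groups did not overlap for either gene. Acta1, the skeletal actin of the fetal and stressed ventricle, was at 369, 335, 396 and 218 CPM in the 3-week and 552, 1154, 776 and 1004 CPM in the 3-month libraries (1.40 ± 0.37, adjusted p = 0.0208). This call was lost without 3-week replicate 2 (adjusted p = 0.0515), 3-month replicate 2 (0.0718) or 3-month replicate 4 (0.0628). It was also lost without 3-week replicates 2 and 5 (0.104) and without 3 and 6 (0.0718).

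Several other markers of hypertrophy did not pass. The atrial natriuretic peptide gene Nppa was at 114, 118, 91.7 and 68 CPM in the 3-week and 154, 168, 119 and 178 CPM in the 3-month libraries, without overlap (0.66 ± 0.33, adjusted p = 0.188). Ankrd1, a stretch-responsive Z-disc gene, was at 2662 to 3460.2 CPM in the 3-week and 3431 to 5228 CPM in the 3-month libraries (0.37 ± 0.16, adjusted p = 0.139). The myosin genes Myh7 and Myh6 gave 0.14 ± 0.17 and 0.18 ± 0.12, and Atp2a2 0.46 ± 0.31 (adjusted p = 0.578, 0.323 and 0.323). Of 24 sarcomere and Z-disc genes 3 rose and 1 fell, and Flnc, a filamin at the Z-disc, led them at 383, 438, 411 and 514 CPM in the 3-week and 909, 1265, 782 and 1036 CPM in the 3-month libraries (1.19 ± 0.20, adjusted p = 0.00115). Of 18 calcium handling genes 1 rose, with 8 without 3-week replicates 3 and 6 (median 0.46) and 0 without 2 and 5 (median 0.03). In these settings 15% and 1.34% of all genes tested rose. Of 20 ion channel and connexin genes 1 rose and 1 fell, where 9.52% of all genes tested passed.

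Among matrix genes, the lists of basement membrane and of collagen modification held genes that rose. Of 20 basement membrane genes 4 rose and 0 fell, with a median of 0.20. Col4a1, a chain of the main network collagen of basement membranes, was at 340.1, 394, 296 and 407 CPM in the 3-week and 634, 653, 633 and 671 in the 3-month libraries (0.85 ± 0.14, adjusted p = 0.000942). Its partner chain Col4a2 stood at 259, 303, 233 and 328 CPM in the 3-week and 493, 511, 499 and 520.3 CPM in the 3-month libraries (0.85 ± 0.13, adjusted p = 0.000888). The 3-month libraries were close together and above all 3-week libraries in both. Of 26 interstitial collagen and processing genes 5 rose and 0 fell, among them the prolyl hydroxylase P4ha2 (0.41 ± 0.09) and the lysyl oxidase Loxl2 (0.76 ± 0.16). The fibrillar collagens themselves did not pass, with Col1a1 at 77.3 to 117 CPM in the 3-week and 99.4 to 132 CPM in the 3-month libraries (0.21 ± 0.19, adjusted p = 0.456) and Col3a1 at 156 to 211 CPM in the 3-week and 122 to 217 CPM in the 3-month libraries (-0.27 ± 0.27, adjusted p = 0.511).

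Of 39 matricellular, elastic fibre and proteoglycan genes 7 rose and 0 fell. Thbs1, a secreted regulator of TGF-beta activation and of vessels, was at 4.24, 4.44, 7.04 and 6.79 CPM in the 3-week and 895, 863, 349 and 1023 in the 3-month libraries, 139-fold higher (7.12 ± 1.15, adjusted p = 0.0011). The lowest 3-month library, replicate 3, was still far above all 3-week libraries. Ccn1, an immediate early matricellular gene, stood at 154, 78.3, 183 and 72 CPM in the 3-week and 367, 470.4, 758 and 403 CPM in the 3-month libraries (2.04 ± 0.42, adjusted p = 0.00525), and 3-week replicates 2 and 5 were above replicates 3 and 6. Postn, a marker of activated fibroblasts, was at 32.3 to 48.5 CPM in the 3-week and 40.4 to 48.8 CPM in the 3-month libraries (0.21 ± 0.25, adjusted p = 0.584). Of 25 angiogenic endothelial genes 2 rose, Cd93 and the semaphorin and VEGF co-receptor Nrp2, which went from between 49.8 and 69.1 to between 92.6 and 108 CPM (0.72 ± 0.13). Apold1, an early response gene of endothelium, stood at 12.4 to 22.2 CPM in the 3-week and 215 to 315 CPM in the 3-month libraries (4.06 ± 0.64).

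Some genes of stress responses rose. Of 29 genes of the integrated stress and unfolded protein responses 5 rose and 1 fell. Gdf15, a secreted stress cytokine, was at 2.28, 3.78, 4.95 and 2.84 CPM in the 3-week and 27.3, 27.9, 15.4 and 18.9 in the 3-month libraries (2.70 ± 0.38, adjusted p = 0.000535), and the glutathione-degrading enzyme gene Chac1 rose from between 1.97 and 2.94 to between 6.51 and 12.6 CPM (1.90 ± 0.28). Of 29 NRF2 and antioxidant genes 5 rose and 2 fell. Srxn1, which repairs oxidized peroxiredoxins, stood at 23.2, 23.9, 28 and 23.9 CPM in the 3-week and 45.2, 50.4, 34.7 and 46.1 CPM in the 3-month libraries (0.83 ± 0.12, adjusted p = 0.000535), whereas the glutathione transferase gene Gsta3 fell from between 17.5 and 22.1 to between 7.67 and 9.42 CPM (-1.21 ± 0.23). For both genes the groups did not overlap. Of 21 p53 targets 6 rose and 1 fell, among them the kinase gene Plk3 (2.33 ± 0.38) and the death receptor gene Tnfrsf10b (2.06 ± 0.35).

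Of 23 xenobiotic and aldehyde metabolism genes, which handle foreign compounds, 2 rose and 6 fell. Fmo1, a flavin-containing monooxygenase, was at 89.98, 61.4, 83 and 69.2 CPM in the 3-week and 36.9, 41, 52.3 and 42.7 in the 3-month libraries (-0.81 ± 0.18, adjusted p = 0.00861). Sult1a1, a sulfotransferase, stood at 23.5 to 42.1 CPM in the 3-week and 15.6 to 18 CPM in the 3-month libraries (-0.90 ± 0.17). In both genes 3-week replicate 2 was highest and the groups did not overlap, but the adjusted p without replicates 2 and 5 was 0.169 for Fmo1 and 0.0942 for Sult1a1. Cyp1a1, the usual sentinel of the aryl hydrocarbon receptor, had 0 counts in all 8 nicotine libraries. The nicotinic receptor gene Chrna7 had 0 to 2 counts per library.

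Of 17 measured genes of nicotinic, muscarinic and adrenergic receptors and their regulators 1 rose and 3 fell. Adra2b, an alpha-2 adrenergic receptor, had 74 counts over the 3-week and 8 over the 3-month libraries (-3.16 ± 0.62, adjusted p = 0.00341). The main beta receptor of the heart, Adrb1, was at 14.4, 28.5, 15.4 and 21.9 CPM in the 3-week and 16, 15, 27.8 and 16.3 CPM in the 3-month libraries, with the groups overlapping (-0.09 ± 0.31, adjusted p = 0.862).

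Blood transcripts were lower in the 3-month start. The 7 measured blood and erythroid markers of 9 listed fell, with a median of -1.41 and no overlap between ages in any of the 7. Over all genes tested 9.37% were lower without overlap. Alas2, the heme synthesis enzyme of red cell precursors, was at 35, 47.4, 37.8 and 61.6 CPM in the 3-week and 15, 13.3, 20.5 and 14.9 in the 3-month libraries (-1.51 ± 0.32, adjusted p = 0.00544). Hba-a1, an alpha globin gene with a near-identical copy, stood at 553, 543, 479.7 and 577 CPM in the 3-week and 193, 175, 231 and 193 CPM in the 3-month libraries (-1.44 ± 0.37, adjusted p = 0.0184). Its call was lost without 3-month replicate 2 (adjusted p = 0.0611) or 4 (0.0572) and without 3-week replicates 2 and 5 (0.108). Without 3-week replicates 2 and 5, 3 of the 7 fell, where 0.529% of all genes tested fell. Without replicates 3 and 6, 4 fell, where 11.7% of all genes tested fell.

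The sex of the mice is not given in the labels. Of 6 X inactivation and Y-linked genes 2 fell and 0 rose. The 4 Y-linked genes were measured in all 8 nicotine libraries, at 12 to 111 CPM, and did not pass, so that RNA of male mice was present in each library. Xist, the RNA that coats the inactive X chromosome, was at 1.32 to 5.29 CPM in the 3-week and 0.545 to 0.929 CPM in the 3-month libraries (-2.13 ± 0.60, adjusted p = 0.0308), and its antisense gene Tsix at 1.39 to 2.28 CPM and 0.138 to 0.642 CPM (-2.25 ± 0.43, adjusted p = 0.00313). The groups did not overlap for either, and as the strand setting is not given, reads of these overlapping genes cannot be told apart. The call of Xist was lost without 3-week replicate 2 (adjusted p = 0.118) or 5 (0.0707), without 3-month replicate 1 (0.059), 2 (0.0689), 3 (0.0627) or 4 (0.0921), and without 3-week replicates 2 and 5 (0.378).

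With all libraries, few genes of energy metabolism passed. Of 36 nuclear genes of oxidative phosphorylation and of 46 cytosolic ribosomal protein genes, 0 passed in edgeR's quasi-likelihood test, with 5 at an unadjusted p under 0.05 in each, 0 by DESeq2 in each, and 12 and 10 by limma voom. Their medians were -0.22 and -0.25, and without 3-week replicates 3 and 6, 15 and 29 of them fell, where 11.7% of all genes tested fell. Without replicates 2 and 5, 0 of either list passed. Of 33 fatty acid genes 1 rose, Pdk4, an inhibitor of glucose oxidation, at 205, 427, 272 and 466 CPM in the 3-week and 794, 1017, 952 and 1253 CPM in the 3-month libraries (1.55 ± 0.38, adjusted p = 0.016). Its call was lost without 3-week replicate 2 (adjusted p = 0.0637) or 5 (0.0566), without both (0.257) or without 3-month replicate 4 (0.0532). Of 13 mitochondrially encoded genes 1 fell, mt-Nd6, at 4022, 3339, 3293 and 3060.2 CPM in the 3-week and 1791, 1652, 2064 and 1788 CPM in the 3-month libraries (-0.91 ± 0.14, adjusted p = 0.000925). This gene lies on the other strand than its neighbours, and the strand setting of the counting is not given, so its value is uncertain.

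Of 40 cell cycle genes 3 fell and 0 rose, with a median of -0.32. The median was -0.80 in air, where 0 passed, and -0.81 under vehicle, where 8 fell and 1 rose. Unadjusted p was under 0.05 for 24 of the 40 in air and 12 under nicotine. Over all genes tested it was for 9.08% in air and 28% under nicotine. The proliferation marker Mki67 was at 5.68, 6.25, 1.86 and 5.61 CPM in the 3-week and 2.87, 5.28, 4.91 and 4.13 CPM in the 3-month libraries, with overlap and 3-week replicate 5 lowest (-0.17 ± 0.44, adjusted p = 0.812). Of 26 interferon response genes 2 fell and 0 rose, and all 26 had fold changes below 0, with a median of -0.50. Over all genes tested 7383 of 15500 were above 0. The median was -0.61 in air, where 0 passed, and -0.83 under vehicle, where 13 fell and 0 rose. Unadjusted p was under 0.05 for 15 of the 26 in air and 12 under nicotine. Under nicotine without 3-week replicates 3 and 6, 7 of the 26 fell, where 11.7% of all genes tested fell, and without 2 and 5, 0 passed. The growth factor gene Igf1 stood at 10.6 to 16.8 CPM in the 3-week and 7.28 to 11.8 CPM in the 3-month libraries (-0.27 ± 0.19, adjusted p = 0.356).

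The age differences in air and under vehicle share no library with the one under nicotine. In air, 1 of 15500 genes passed (0.00645%), with 1408 at an unadjusted p under 0.05, 42 called by DESeq2 and 1271 by limma voom. That gene, Apod, an apolipoprotein named after its value was seen, rose by 1.11 ± 0.18 in air and was 0.20 ± 0.18 under nicotine (adjusted p = 0.455). The count in air was 68 and 7 without 3-week air replicate 1 or 5, and 0 without 3-week replicate 2 or 4 or any single 3-month air library. Under vehicle, 1933 genes passed (12.5%), of which 789 rose (5.09%) and 1144 fell (7.38%). That count was 1 without 3-week vehicle replicate 1, 647 without replicate 2 and 6306 without replicate 4, and leaving out single 3-month vehicle libraries gave 576 without replicate 1 and 854 and 909 without replicates 2 and 3. Of the 1476 genes of the nicotine comparison 639 passed under vehicle too, which is 43.3% of the first list and 33.1% of the second, and 636 of them had the same direction. In air 1171 of the 1476 had the same direction (79.3%), with a median of 0.18 on the log2 scale in the direction seen under nicotine, where the median size was 0.82. Under vehicle 1388 did (94.0%), with a median of 0.56.

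**Figure D3:**
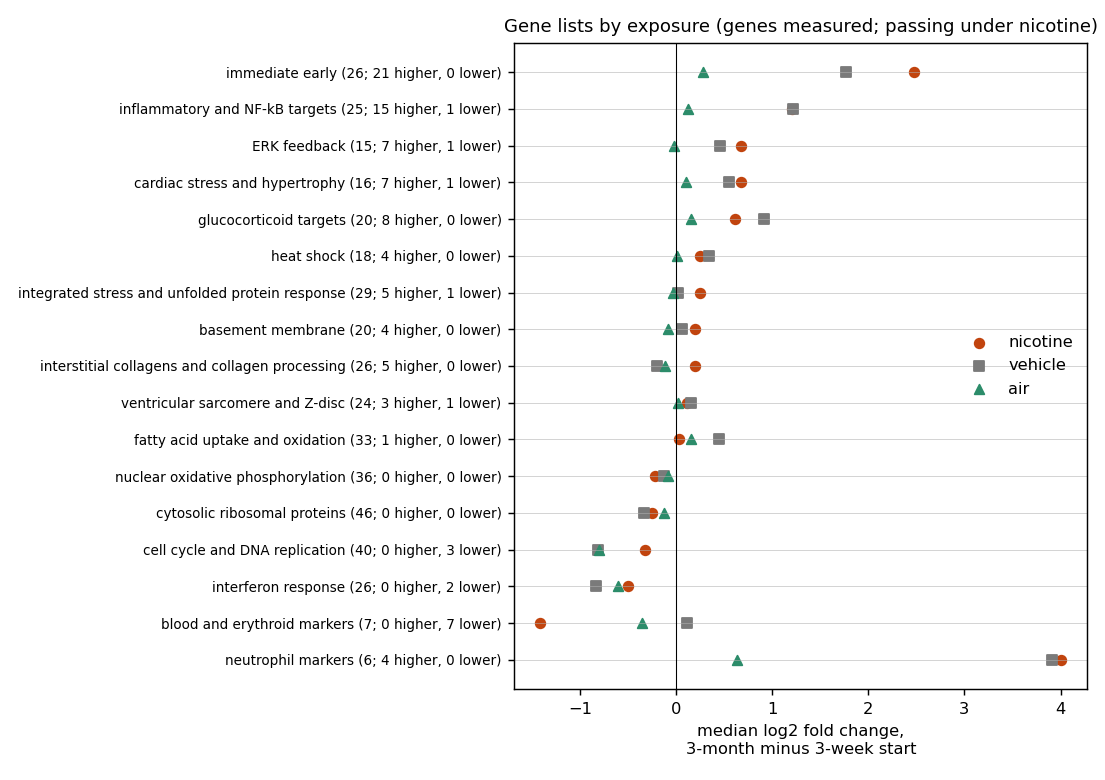
Median log2 fold change of 3-month minus 3-week start for 17 gene lists, under nicotine (circles), under vehicle (squares) and in air (triangles), with the number of measured genes and of those that rose or fell under nicotine. Immediate early, NF-kB and neutrophil lists lie furthest right under nicotine and vehicle and near 0.28, 0.13 and 0.63 in air, and blood markers are lowest under nicotine.

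The lists that led under nicotine had medians above 0 under vehicle too, and lower ones in air. Immediate early genes had a median of 1.77 under vehicle and 0.28 in air, and NF-kB genes 1.22 and 0.13. Levels per library are given beside these medians. The mean log2 CPM of immediate early genes was 4.20, 3.65, 4.66 and 3.68 in the 3-week nicotine libraries and 6.62, 6.75, 6.61 and 6.82 in the 3-month nicotine libraries. In 3-week air it was 6.43, 5.32, 3.74 and 6.64 in replicates 1, 2, 4 and 5. Replicate 5 lay within and replicate 1 just below the 3-month nicotine range, and replicate 4 lay within the 3-week nicotine range. In 3-month air it was 6.65, 6.31, 6.23 and 6.29, so that replicate 1 lay within the 3-month nicotine range and the others below it. Under vehicle it was 3.98, 5.57 and 4.02 in the 3-week and 6.76, 6.99, 6.90 and 7.09 in the 3-month libraries. Without 3-week air replicates 1 and 5, 849 genes passed in air, and 1 gene differed in age difference between nicotine and air. For NF-kB genes 3-week air replicates 1 and 5 were at 3.66 and 3.56 and replicates 2 and 4 at 2.05 and 1.798, against 1.44 to 1.75 in 3-week nicotine.

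**Figure D4:**
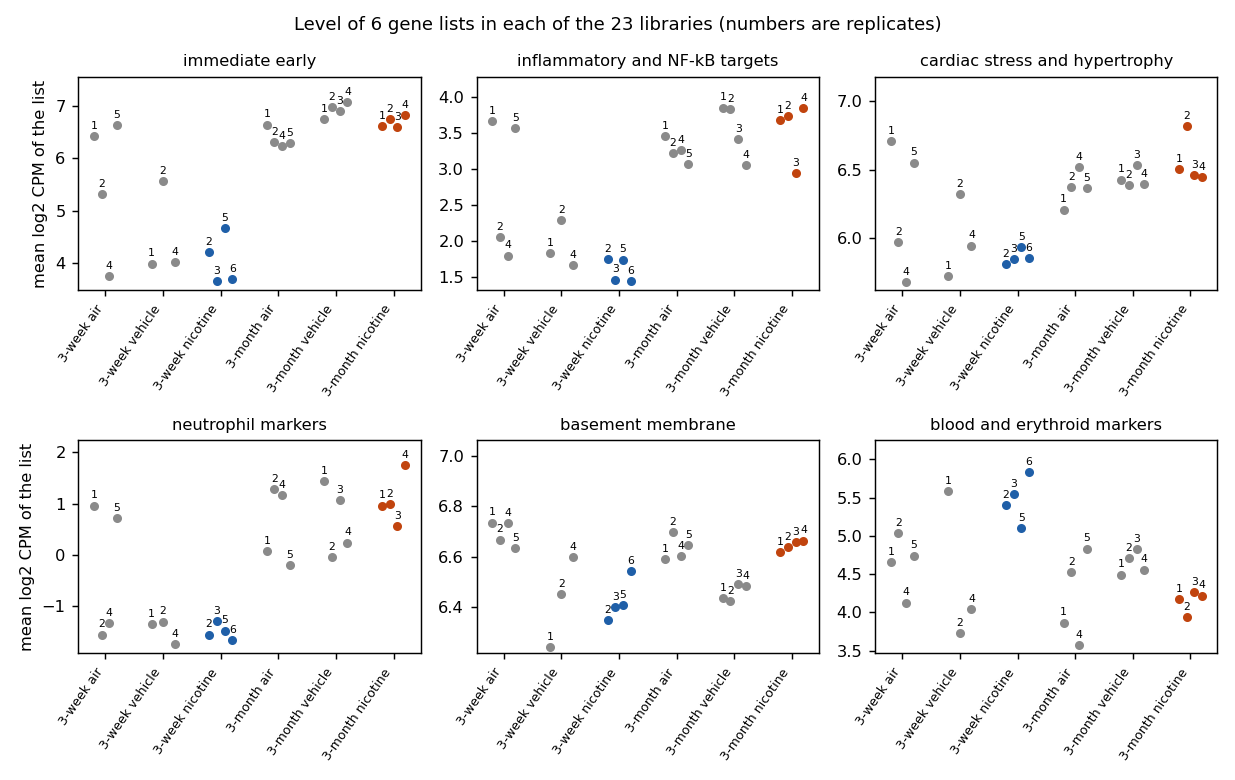
Mean log2 CPM of 6 gene lists in each of the 23 libraries, by group, with nicotine libraries in blue (3-week) and orange (3-month), others in grey and numbers for replicates. In immediate early, NF-kB and cardiac stress genes 3-week air replicates 1 and 5 lie with the 3-month libraries, while all 4 of the 3-week nicotine libraries lie low.

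The age difference itself differed between nicotine and air for 21 genes (0.135%), 16 with a higher and 5 with a lower difference under nicotine, and 19 of the 21 also passed under nicotine. Abra was at 158, 85, 60.3 and 158 CPM in 3-week air and 127, 118, 109 and 82.7 in 3-month air, an age difference of -0.08 ± 0.23 in air, so that the 2 age differences were 2.03 ± 0.33 apart (adjusted p = 0.0213). The air groups overlapped, whereas the nicotine groups did not. Cd93 was at 147 to 203 and 141 to 175 CPM in air (1.02 ± 0.17, adjusted p = 0.0213) and Rit1 at 53.5 to 68.9 and 48.5 to 69 CPM (-0.87 ± 0.14, adjusted p = 0.0213). Phlda1 (1.81 ± 0.32), Tnfrsf12a (1.55 ± 0.28) and Etv5 (1.23 ± 0.23), an ERK-induced ETS factor, differed in the same direction as Abra, and Zc3h6 (-1.09 ± 0.19) and Vmac (-1.12 ± 0.20) in the same as Rit1. Vwc2, a secreted BMP regulator, fell short of the threshold under nicotine (-0.56 ± 0.20, adjusted p = 0.0784) and was 1.11 ± 0.20 in air, a difference of -1.67 ± 0.28 (adjusted p = 0.0213).

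Also among the 21 were Atf3 (4.96 ± 0.94), Nr4a3 (6.09 ± 1.13), Tnfaip3 (1.76 ± 0.36), Srxn1 (0.84 ± 0.17) and Col4a1 (1.01 ± 0.19). Nppb did not pass, at 1.70 ± 0.35 (adjusted p = 0.0501), and its age difference in air was -0.12 ± 0.25. These counts rested on few libraries. Leaving out 1 nicotine library left 6, 0, 7 and 10 genes for 3-week replicates 2, 3, 5 and 6, and 6, 0, 24 and 0 for 3-month replicates 1, 2, 3 and 4. Leaving out 1 air library left 7, 131, 199 and 5 genes for 3-week replicates 1, 2, 4 and 5, and 9, 6, 1 and 0 for 3-month replicates 1, 2, 4 and 5. The calls under nicotine of Etv5 and Zc3h6 were lost without 3-month replicate 4 (adjusted p = 0.0538) and 3-month replicate 2 (0.0636). Both were also lost without 3-week nicotine replicates 2 and 5 (0.192 and 0.0721). Between nicotine and vehicle, 0 genes (0%) passed in edgeR's quasi-likelihood test, with 1000 at an unadjusted p under 0.05, 28 called by DESeq2 and 156 by limma voom. The genes of smallest p there, one lower and one higher under nicotine, were Vwc2 (-1.60 ± 0.30, adjusted p = 0.234) and the ubiquitin ligase gene Rnf213 (0.69 ± 0.14, adjusted p = 0.234). Without 3-week vehicle replicate 4, 313 genes passed.

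**Figure D5:**
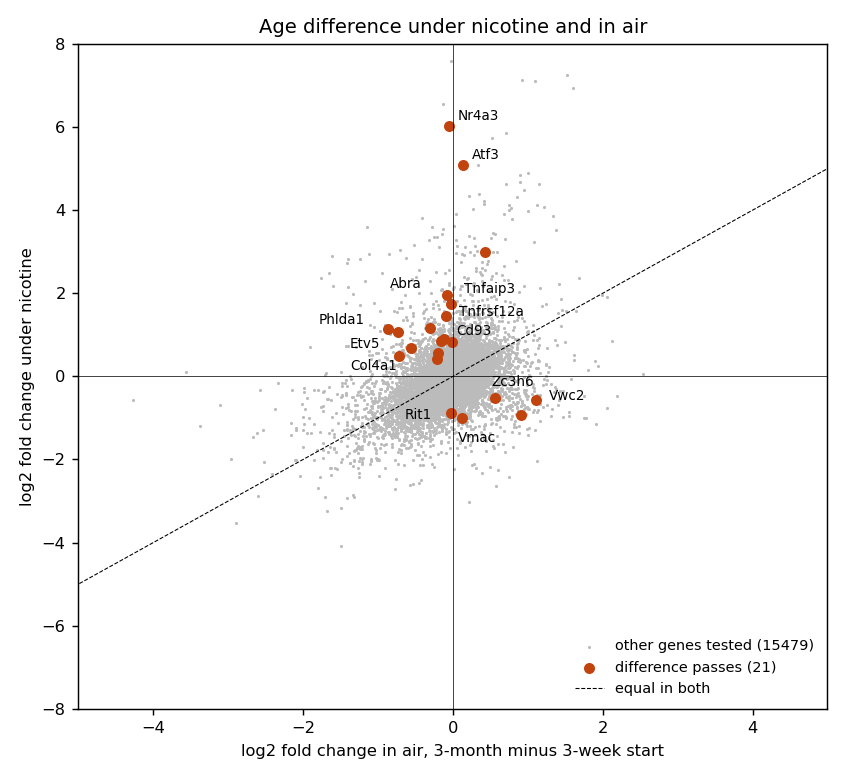
Log2 fold change of 3-month minus 3-week start under nicotine against that in air, 1 point per gene, with the 21 genes whose age difference differs between the 2 in orange and the line of equal differences dashed. Nr4a3 and Atf3 lie above 5 under nicotine and near 0 in air, and Rit1, Vmac, Zc3h6 and Vwc2 lie below the dashed line.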

How the data were processed

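The table deposited by the authors holds raw counts of 49315 genes in 23 libraries of left ventricle. The tools were Trimmomatic 0.36, STAR 2.5.2b, Subread 1.5.2 with featureCounts, and DESeq2, per the submitters' processing notes. The sources used here do not give the genome build, the annotation or the strand setting. Each column was matched to its library by name, and 0 columns belonged to no sample. The authors' tables of comparisons and of ontology terms were not used here. Symbols and exonic lengths came from GENCODE vM21 (49056 genes with a symbol), and promoters from RefSeq GRCm38.p6.

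The analysis ran edgeR 4.0.16 in R 4.3.3. Genes were kept by filterByExpr at a minimum count of 10 (15500 genes), library sizes were scaled by TMM, and 1 robust quasi-likelihood model of all 23 libraries in 6 groups (17 residual degrees of freedom) gave every contrast, with Benjamini-Hochberg adjustment over all genes tested and a threshold of 0.05. In simulated data for the nicotine comparison (15231 genes tested), 66 of 95 genes changed by 1 and 91 of 99 changed by 2 on the log2 scale were recovered. No 2 libraries agreed within sampling noise (lowest chi-square per gene 4.70). Intervals of count ratios are exact at 95% and cover counting error only, and library totals set their precision. Alternatives were other scalings, DESeq2 1.42.0, voom of limma 3.58.1, other filters, a length offset, the replicate block and libraries left out.

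Named genes were the 15 higher and 15 lower of smallest p whose mean level over all libraries was 1 log2 CPM or more, up to 4 per gene list, those of the 2 differences of differences and of the fit of 8 libraries, and a fixed list followed whatever its value. Predicted genes entered the counts and are not named. Single values of a few further genes are not reported here. The members, lists and rules were chosen with earlier results of these data known, and a list is described by counts and medians without a test.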

Additional observations from a re-analysis of the deposited data

Results flagged for a closer look

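In 17 of 216 groups of 4 nicotine libraries examined, 1 library stood apart from the other 3 by more than Dixon's 95% critical value, and chance flags about 1 in 20 groups. Replicate 3 of the 3-month start was the library concerned for Plekho2 (54.6 CPM), Smim5 (7.20), Irs2 (103), Nr4a3 (66.3), Egr3 (36.3), Col3a1 (217) and Adrb1 (27.8). It was below the other 3 libraries for Plekho2, Irs2 and Nr4a3 and above them for Smim5, Egr3, Col3a1 and Adrb1. Replicate 1 of the 3-month start stood low for Apold1 (215 CPM) and Igf1 (7.28). In the 3-week start, replicate 5 stood high for Srxn1 (28 CPM), Atf3 (7.74) and Egr3 (1.62) and low for Actc1 (6552) and Mki67 (1.86). Replicate 2 stood high for Igf1 (16.8 CPM) and replicate 3 low for Tnfaip3 (3.62), and for Il6 replicate 3 was the one 3-week library with a count (0.0823 CPM).

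The age difference differed between nicotine and air, by edgeR's quasi-likelihood test of the difference of differences, in 14 of the named genes. It was higher under nicotine for Abra (2.03 on the log2 scale), Cd93 (1.02), Tnfrsf12a (1.55), Srxn1 (0.84), Phlda1 (1.81), Etv5 (1.23), Atf3 (4.96), Col4a1 (1.01), Nr4a3 (6.09) and Tnfaip3 (1.76). It was lower under nicotine for Rit1 (-0.87), Vmac (-1.12), Vwc2 (-1.67) and Zc3h6 (-1.09).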

How the results depend on the processing

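The 1476 genes of the nicotine comparison became 3915 with limma voom and 915 with no filter on low counts, stayed within 1.5 times with RLE or TMMwsp scaling, DESeq2, a minimum count of 30, a length offset or the 8 libraries alone, and ranged from 628 to 2333 with 1 library left out. Alternatives added after seeing the data gave 289 without 3-week replicates 2 and 5, 4165 without 3 and 6, and 2418 without 3-week vehicle replicates 1 and 2. The 1 gene in air became 42 with DESeq2, 1271 with voom, 0 with the air libraries alone, 849 without 3-week air replicates 1 and 5, and 0 to 68 with 1 library left out. The 1933 genes under vehicle became 7208 with voom, 1132 with no filter, 347 with the vehicle libraries alone, 0 without 3-week replicates 1 and 2, and 1 to 6306 with 1 library left out. The 21 genes that differed between nicotine and air became 36 with RLE, 35 with TMMwsp, 203 with DESeq2, 33 with the libraries of the contrast, 46 with the length offset, 1 without 3-week air replicates 1 and 5, 0 without 3-week nicotine replicates 2 and 5, 5 without 3 and 6, and 0 to 199 with 1 library left out. The 0 genes that differed between nicotine and vehicle became 28 with DESeq2, 156 with voom and 0 to 313 with 1 library left out. The cause of these changes was not tested.

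The deviations of same-numbered libraries from their group means correlated at over 0.1 in 10 of 41 pairs (-0.37 to 0.42 in all). The nicotine libraries numbered 2 correlated at -0.04 and those numbered 3 at 0.07. Differently numbered libraries reached values further from 0. Replicate 4 of 3-week vehicle correlated at 0.56 with 3-week nicotine replicate 6 and at -0.59 with replicate 2. Values of this size therefore cannot decide whether same-numbered libraries are paired. With the replicate block, 756 genes passed under nicotine, 0 in air, 958 under vehicle and 0 in the difference between nicotine and air. The block leaves fewer residual degrees of freedom, and the cause of the lower counts was not tested.

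Of 104 named genes 86 passed under nicotine, and 62 of these passed under every alternative run. Without 3-week replicates 2 and 5, 22 lost their call. Of 57 gene lists, 41 held over 1.5 times fewer genes that passed without 2 and 5, and 28 over 1.5 times more and 2 fewer without 3 and 6. Myh7 turned to -0.12 without 3-week replicates 3 and 6 and Atp2a2 to -0.028 without 2 and 5, whereas Atp2a2 was 1.19 (adjusted p = 0.0188) without 3 and 6 and 0.69 with voom (0.0294), past the threshold in both. Mki67 turned to 0.17 with voom and 0.18 without replicates 3 and 6, and Adrb1 to 0.34 without 3 and 6, and Adrb1 ranged from -0.34 to 0.13 with 1 library left out. Fkbp5 ranged from -0.22 to 0.0083 with 1 library left out. These 5 genes had not passed with all libraries. Retnlg, Il6, Cxcr2 and Adra2b have few counts, which limits their precision.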

Other observations

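Of 21 genes of lipogenesis and lipolysis 3 fell and 0 rose. Among them Scd2, a fatty acid desaturase, was at 25.6, 24.9, 27 and 27 CPM in the 3-week and 13, 12.2, 16.7 and 10.04 in the 3-month libraries, without overlap (-1.005 ± 0.23, adjusted p = 0.0112 in edgeR's quasi-likelihood test). Its adjusted p without 3-week replicates 2 and 5 was 0.0818. Of 26 genes of transforming growth factor and BMP signalling 3 rose and 1 fell. The feedback repressor Skil rose from between 13.5 and 27.1 to between 41.4 and 62 CPM (1.42 ± 0.27) and the ligand Bmp4 fell from between 13.8 and 23.4 to between 5.29 and 9.06 CPM (-1.44 ± 0.30), with adjusted p-values of 0.0894 and 0.125 without 3-week replicates 2 and 5. Of 22 Wnt and Notch genes 1 rose, the receptor gene Notch1 (0.84 ± 0.16), and 1 fell, Lfng, a glycosyltransferase that modifies Notch (-1.73 ± 0.32), with 0.0548 and 0.0541 without the same replicates. With all libraries 9.52% of all genes tested passed.

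Of 16 genes of the IGF and growth hormone axis 1 rose, Irs2, an insulin receptor adaptor, at 9.27, 21, 14.7 and 23 CPM in the 3-week and 184, 187, 103 and 188 CPM in the 3-month libraries (3.29 ± 0.63, adjusted p = 0.00336). The groups did not overlap, and the adjusted p was 0.102 without 3-week replicates 2 and 5. Of 19 imprinted growth genes 2 rose and 0 fell, of 18 heat shock genes 4 rose and 0 fell, and of 20 hypoxia targets 3 rose and 1 fell. Fold changes were above 0 in 17 of 18 heat shock genes, against 7383 of 15500 genes tested. Of 17 genes of muscle atrophy and autophagy 3 rose and 0 fell, of 16 complement genes 2 rose and 0 fell, and of 25 splicing genes 1 fell. Over all genes tested 5.03% rose and 4.49% fell. The CRE motif (TGACGTCA, the same on both strands) was found in 4.894% of promoters of genes that rose and 1.099% of those that fell, against 2.442% over promoters of genes tested and 1.546% over all promoters of the same length.

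Of 7 adipocyte, 6 immunoglobulin and B cell, 2 T and NK cell, 4 skeletal muscle and 7 thymus, valve and cartilage markers measured, 0 passed in edgeR's quasi-likelihood test. Of these, 3, 2, 0, 1 and 1 had an unadjusted p under 0.05, 0 passed by DESeq2 in each, and 1, 2, 0, 0 and 0 passed by limma voom. Of 3 mesothelium and epicardium markers 1 rose, and of 8 markers of neurons and Schwann cells 1 fell.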
